A study of Mus musculus with 12 samples.

Results

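A group of 8 genes known as markers of wounded or regenerating epithelium were described here: Plet1, Krt7, Sprr1a, Anxa1, Anxa3, S100a6, Clu and Il33. They were chosen by symbol, as 8 of the 46517 genes in the count tables, and all 8 were found. Plet1 was picked because of its pattern across the groups, so its levels are given as a description with no test. RNA had been sequenced from intestinal epithelial cells detached with EDTA from the colons of C57BL/6 mice aged 7 to 9 weeks. The mice were wild type (WT) or lacked Nfkb2 (Nfkb2-/-, here KO), a gene of the NF-kB family of transcription factors, and mice of each genotype had received either no treatment or 48 h of DSS (dextran sulfate sodium, a polymer toxic to the colonic lining). Each of the 4 groups held 3 samples, which the series describes as biological replicates. The design asks how DSS changed the epithelium and whether the change differed without Nfkb2.

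When the lining of the gut is damaged, epithelial cells at the wound edge flatten, spread over the bare surface and switch on genes that are low in the resting crypt, many of them used in the fetal gut. This program has been linked to the transcriptional coactivator YAP, which binds DNA through TEAD factors, and to inflammatory signals. Plet1 is a surface protein of progenitor-like epithelium that takes part in cell movement. Krt7 is an intermediate filament keratin of ductal and simple epithelia, and Sprr1a is a cross-linked precursor of the cornified envelope of squamous epithelium. Anxa1 and Anxa3 are calcium-dependent membrane-binding proteins, Anxa1 with a known role in resolving inflammation and in wound closure. S100a6 is a small calcium-binding protein. Clu is a secreted chaperone that marks revival stem cells, and Il33 is a nuclear alarmin released from damaged cells that signals through the receptor Il1rl1.

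Promoter sequences were examined because the markers are often discussed as targets of shared transcription factors. RefSeq windows of 250 bases before the start (GRCm38.p6) were found for 6 of the 8 genes, all but Anxa3 and Clu. These 2 windows are shown, 5′ to 3′ on the gene's own strand, because they are the ones that held the letters of the AP-1 motif (TGANTCA, both strands searched), which are in capitals. Plet1 lies on the plus strand at chr9:50494275-50494524, and Sprr1a lies on the minus strand at chr3:92485882-92486131, where the last bases of the window belong to the first exon in GENCODE M21.
Plet1: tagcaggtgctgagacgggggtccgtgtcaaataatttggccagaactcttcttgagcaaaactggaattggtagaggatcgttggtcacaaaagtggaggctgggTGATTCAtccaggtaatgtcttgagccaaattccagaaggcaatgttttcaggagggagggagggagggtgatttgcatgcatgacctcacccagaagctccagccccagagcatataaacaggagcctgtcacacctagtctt
Sprr1a: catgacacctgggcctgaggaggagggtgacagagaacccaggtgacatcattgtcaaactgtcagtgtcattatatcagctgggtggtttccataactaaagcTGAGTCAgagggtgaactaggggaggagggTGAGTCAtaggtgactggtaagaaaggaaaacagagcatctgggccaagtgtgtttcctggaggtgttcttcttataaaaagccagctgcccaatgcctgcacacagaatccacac

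The match in Plet1 lay 144 to 138 bases before the start. The pair in Sprr1a lay 146 to 140 and 116 to 110 bases before it. Of all 32851 promoter windows in the table, 6.75% held this motif. The TEAD letters GGAATG were found in Anxa1, 236 to 231 bases before the start, and in both Il33 windows, 131 to 126 and 107 to 102 bases before their starts, against 12.6% of all windows. No NF-kB motif (7.25% of all windows) and no STAT motif (TTCNNNGAA, 7.02%) was found in any of the windows, and none of the 4 motifs was found in those of Krt7 or S100a6. These motifs were chosen after the expression values had been seen, and a match describes letters only.

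Total counts were 5595909 to 8117740 per sample, and 15738 to 17120 genes had at least 1 count. Nfkb2 itself was at 30.8 to 46.1 CPM (counts scaled to a common library size) in the 6 WT samples and at 11.7 to 19.6 CPM in the 6 KO samples, in the direction of the labels, with reads remaining in every KO library. All 12 colonic epithelium markers were detected. They summed to 35560 to 44015 CPM in the untreated WT group and less in the other groups. The sums were 29610 to 30705 CPM for WT and 27923 to 30324 CPM for KO with DSS, and 30074 to 32579 CPM for KO without it. For DSS in WT, 4 of the 12 had an edgeR adjusted p under 0.05, all lower. Among them were Car1 (log2 fold change -2.34) and Krt20 (-1.33), while Epcam (-0.04), Cdh1 (0.02) and Lgals4 (0.01) were not. Car1 was also lower in untreated KO than in untreated WT (-1.47). These genes were named after their values were seen. The sum thus depends on genes that changed, and the share of epithelial cells was not measured. A set of 16 leukocyte markers summed to 34.0 to 88.6 CPM in untreated WT and 91.6 to 100 CPM in DSS-treated WT. It summed to 131 to 155 CPM in untreated KO and 153 to 214 CPM in DSS-treated KO. All KO sums lay above all WT sums. The DSS and untreated sums overlapped in KO. In WT the DSS sums were higher, but apart from replicate 3 (34.0 CPM) the untreated samples were close below, at 88.2 and 88.6 CPM. Squamous markers summed to 3.12 to 13.6 CPM over all samples, with Krt5, Krt6a, Krt1, Trp63, Dsg1a and Krtdap at 0 in every group. Untreated WT replicate 3 stood apart, with the fewest genes detected and the lowest leukocyte sum. In bulk samples, fewer cells of a type and less RNA per cell cannot be told apart.

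The 8 genes spanned a wide range of abundance. Per kilobase of exon and averaged over the 12 samples, Anxa1 stood at 141 CPM, above 97.7% of 12488 genes, and Anxa3 at 122 CPM, above 97.1%. Plet1 (41.0 CPM per kilobase) and S100a6 (40.5) followed, above 90.3% and 90.2% of genes, and Krt7 (18.9) lay above 80.1%. Sprr1a, at 5.00 CPM per kilobase, lay above 50.7%. Il33 and Clu were among the scarcest, at 0.542 and 0.503 CPM per kilobase. Both were thus measured from few reads, which limits what the comparisons below could show for them.

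**Figure D1:**
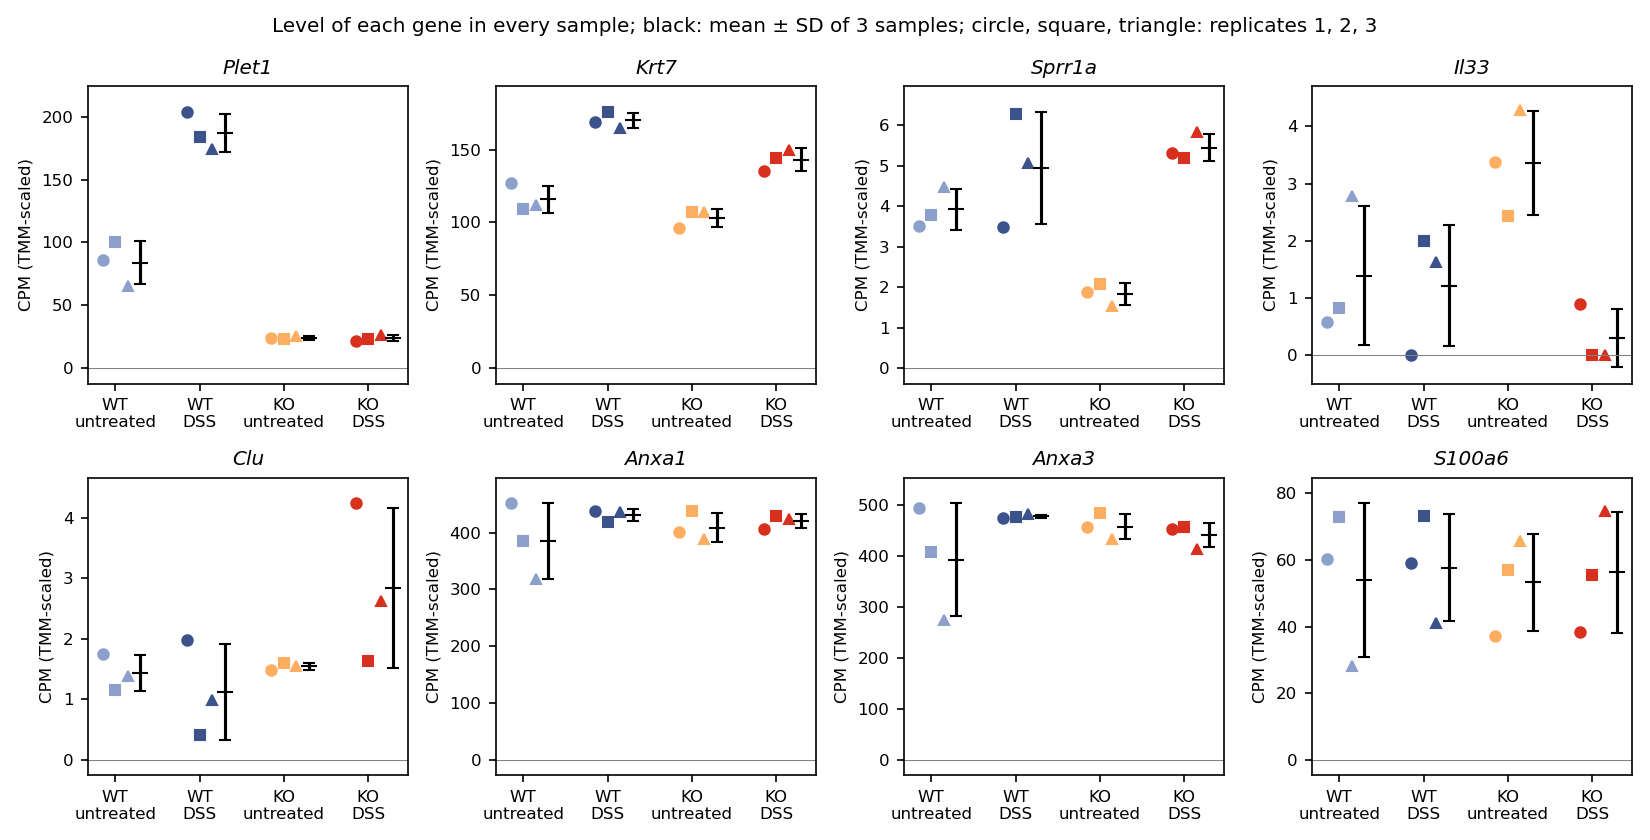
Level of each of the 8 genes in every sample, in CPM on a linear axis, with 1 point per sample and the mean ± SD of 3 samples in black. Plet1 is at 174 to 204 CPM in DSS-treated WT and under 30 CPM in all 6 KO samples. For Anxa1 and Anxa3 the other groups lie within the untreated WT range (319 to 452 and 275 to 495 CPM). The Anxa3 groups of WT and KO under DSS do not overlap.

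Plet1 (ENSMUSG00000032068, chr9:50494525-50505482, plus strand, GRCm38) was at 86.3, 100 and 65.5 CPM in the 3 untreated WT samples and at 204, 184 and 174 CPM in DSS-treated WT. In KO it was at 23.7, 22.9 and 25.8 CPM untreated and at 21.4, 23.4 and 26.2 CPM under DSS. All WT values lay above all KO values, and the DSS samples lay above the untreated ones in WT but overlapped them in KO. The mean level in WT was 84.0 ± 17.4 CPM without DSS and 187 ± 15.3 CPM with it (SD, n = 3), and in KO 24.1 ± 1.47 and 23.7 ± 2.41 CPM. DSS-treated WT cells thus held 2.23 times the untreated WT level, and DSS-treated KO cells 0.98 times the untreated KO level. Relative to WT, KO cells held 0.288 times the level when untreated and 0.126 times under DSS. On the log2 scale the change under DSS was 1.16 (SE 0.15) in WT and -0.03 (SE 0.16) in KO, values that belong to the pattern for which the gene was picked.

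The WT range untreated was wide, with a coefficient of variation of 20.7%, against 6.09% in untreated KO. Its lowest value came from replicate 3, the untreated WT sample noted above. The order of the groups, from high to low, was DSS-treated WT, untreated WT, then both KO groups, which did not differ beyond their spread. Plet1 overlaps an antisense gene, Plet1os, over 261 exon bases, and unstranded reads there cannot be assigned to either. Plet1os had 1 to 12 counts per sample, against 121 to 1380 for Plet1. Leukocyte markers were higher in KO than in WT, in the opposite direction to Plet1, and their part in its levels was not tested.

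Krt7 rose under DSS in both genotypes. The gene lies at chr15:101411043-101430313 on the plus strand. In WT it was at 127, 109 and 112 CPM untreated and at 169, 176 and 165 CPM under DSS. In KO it was at 96.3, 107 and 107 CPM untreated and at 135, 144 and 150 CPM under DSS. Every DSS sample lay above every untreated sample, in each genotype and across both. Such a gap between the treatments was shown by 20.6% of all genes tested in WT and 24.3% in KO. In WT the mean went from 116 ± 9.32 to 170 ± 5.34 CPM (SD, n = 3), 1.47 times (log2 fold change 0.55, SE 0.10, edgeR adjusted p = 0.00341). It passed in all 18 alternative fits, with adjusted p between 2.76e-05 and 0.0298.

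In KO the Krt7 mean went from 103 ± 6.06 to 143 ± 7.86 CPM (SD, n = 3), 1.39 times (log2 fold change 0.47, SE 0.10, edgeR adjusted p = 0.0173, 0.037 with the replicate block). This call was lost without any one of the 3 untreated KO samples, without KO DSS replicate 2 or 3, and with no filter on low counts (0.0572), with adjusted p reaching 0.0959. The rise in KO minus that in WT was -0.08 (95% interval -0.39 to 0.23, edgeR adjusted p = 0.935). KO stood at 0.842 times the WT level under DSS, with no overlap of the groups, a difference that did not pass (edgeR adjusted p = 0.255). Among all genes tested, 22.3% also showed no overlap between those groups, and 19.3% none between the untreated groups.

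Sprr1a was measured from 13 to 47 reads per sample. It lies at chr3:92483952-92485895 on the minus strand. In WT it was at 3.50, 3.77 and 4.48 CPM untreated and at 3.49, 6.27 and 5.06 CPM under DSS, and the groups overlapped. In KO it was at 1.88, 2.07 and 1.54 CPM untreated and at 5.30, 5.19 and 5.82 CPM under DSS, with no overlap. Of all genes tested, 24.3% showed no overlap between these 2 groups. Sprr1a rose 2.96 times in KO (log2 fold change 1.56, SE 0.37, edgeR adjusted p = 0.0287). The call was not stable. It was lost with the replicate block (adjusted p = 0.0509), with only the 6 KO samples (0.0502), with no filter on low counts (0.0709) and without any one of the 6 KO samples, and adjusted p reached 0.126.

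In WT the Sprr1a difference did not pass (log2 fold change 0.34, edgeR adjusted p = 0.732). The difference between the DSS changes was 1.22 (95% interval 0.13 to 2.32), with an edgeR adjusted p = 0.395. The untreated KO samples were the lowest of the 4 groups, at 0.468 times the untreated WT level with no overlap (edgeR adjusted p = 0.146). No overlap between the untreated groups was shown by 19.3% of all genes tested. Squamous markers summed to 5.74 to 7.13 CPM in untreated KO and 6.67 to 13.6 CPM in DSS-treated KO. Leukocyte markers summed to 131 to 155 CPM and 153 to 214 CPM in the same groups, and for both marker sets the groups overlapped. Their part in the Sprr1a result was not tested.

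**Figure D2:**
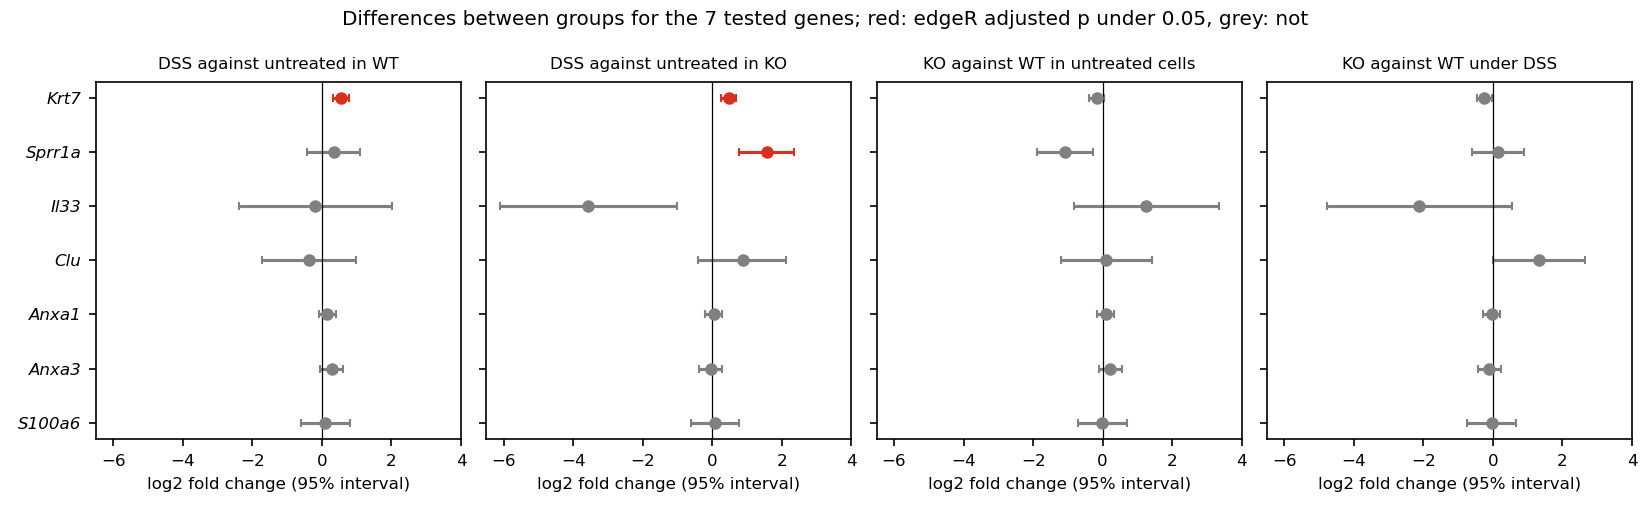
Log2 fold changes with 95% intervals for the 7 tested genes in the 4 comparisons of 2 groups, with red points for an edgeR adjusted p under 0.05. Krt7 is red in both DSS comparisons and Sprr1a in the KO one, and the intervals of Il33 and Clu are several times wider than those of Anxa1.

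Counting the 7 tested markers, 1 of 7 passed for DSS in WT, where 6.3% of all 12522 genes tested passed (2.8% higher, 3.5% lower). In KO 2 of 7 passed, both higher, against 3.92% of all genes (1.88% higher, 2.04% lower). None passed for KO against WT, where 3.48% of genes did in untreated cells (1.72% higher, 1.76% lower) and 3.11% under DSS (1.77% higher, 1.34% lower). None passed for the difference between the DSS changes, where 1.7% did (1.17% higher, 0.527% lower). At an unadjusted p under 0.05, the numbers were 1, 3, 1, 2 and 1 in the same order, and DESeq2 called 1, 3, 0, 0 and 0. The median log2 fold change of the 7 was 0.16 for DSS in WT and 0.08 in KO, beside 0.006 and 0.015 over all genes.

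Anxa1, Anxa3 and S100a6 were abundant and passed in no comparison. Anxa1 (chr19:20373428-20390944, minus strand) was at 452, 385 and 319 CPM in untreated WT, 439, 419 and 436 CPM in DSS-treated WT, 401, 438 and 388 CPM in untreated KO and 406, 430 and 424 CPM in DSS-treated KO. The groups overlapped in all comparisons of 2 groups. The change under DSS was 1.12 times in WT (95% interval 0.948 to 1.32, edgeR adjusted p = 0.528) and 1.03 times in KO (0.870 to 1.21, edgeR adjusted p = 0.917). Anxa1 was therefore among the most narrowly bounded of the markers.

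Anxa3 (chr5:96793339-96845966, plus strand) was at 495, 409 and 275 CPM in untreated WT and at 474, 477 and 482 CPM in DSS-treated WT. In KO it was at 458, 484 and 434 CPM untreated and at 454, 458 and 415 CPM under DSS. The 3 samples of DSS-treated WT lay within a coefficient of variation of under 1%, whereas untreated WT spread widely, with replicate 3 the lowest. The log2 change under DSS in WT was 0.28 (95% interval -0.05 to 0.61, edgeR adjusted p = 0.383), and 0.08 without that replicate. Under DSS the KO samples all lay below the WT samples, at 0.926 times their mean, but the difference did not pass (edgeR adjusted p = 0.815). No overlap between these groups was shown by 22.3% of all genes tested.

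S100a6 (chr3:90612882-90624181, plus strand) was at 60.3, 73.0 and 28.3 CPM in untreated WT, 59.1, 73.1 and 41.1 CPM in DSS-treated WT, 37.3, 57.0 and 65.7 CPM in untreated KO and 38.5, 55.6 and 74.8 CPM in DSS-treated KO. Its spread within groups exceeded any difference between them: the means were 53.9 ± 23.1, 57.7 ± 16, 53.3 ± 14.6 and 56.3 ± 18.2 CPM (SD, n = 3). The 95% interval of the DSS change ran from 0.658 to 1.75 times in WT and from 0.649 to 1.72 times in KO (edgeR adjusted p = 0.933 and 0.943). Sizeable changes in either direction therefore lay within the intervals of this gene.

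Across the 12 samples, Anxa1 and Anxa3 followed each other with a Pearson correlation of log2 CPM of 0.93, and 0.93 again after group means were removed. S100a6 and Plet1 correlated at 0.14 across samples but at 0.85 within groups. These are descriptions over 12 libraries, whose total counts ran from 5595909 to 8117740. The part of depth and preparation in the correlations was not tested. Anxa1 and Anxa3 lie on different chromosomes, while S100a6 and Sprr1a are 1.86 Mb apart on chromosome 3 and correlated at 0.02.

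Il33 and Clu were near the limit of detection. Il33 (chr19:29925114-29960718, plus strand) had 4, 5 and 18 counts in untreated WT and 0, 15 and 10 in DSS-treated WT. It had 25, 20 and 36 counts in untreated KO and 5, 0 and 0 in DSS-treated KO. All 3 untreated KO samples lay above all 3 DSS-treated KO samples, as 24.3% of all genes tested did in one direction or the other. The means were 3.36 CPM and 0.295 CPM, a log2 fold change of -3.57 (SE 1.19, 95% interval -6.11 to -1.02). It did not pass in edgeR (adjusted p = 0.129, 0.21 with the replicate block), while it passed in DESeq2 (adjusted p = 0.0467) and with no filter on low counts (0.00417). The 2 DSS-treated KO samples with no read allow levels of up to 0.445 and 0.416 CPM, the worth of 3 counts.

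In WT the Il33 groups overlapped, at means of 1.39 and 1.21 CPM (edgeR adjusted p = 0.963). The difference between the DSS changes was -3.38 (95% interval -6.77 to 0.01, edgeR adjusted p = 0.475). The mesothelial and endothelial marker sums, cells in which Il33 is known to be expressed, were 2.38 to 3.54 and 3.37 to 7.25 CPM in untreated KO, and 0.831 to 1.41 and 8.59 to 11.1 CPM in DSS-treated KO. Fibroblast and smooth muscle markers summed to 7.69 to 9.39 CPM in untreated KO and 7.56 to 16.6 CPM in DSS-treated KO. The part of these cells in the Il33 values was not tested. Of 7 mesothelial markers, 4 had a count in untreated KO and 1 in DSS-treated KO, so their sum rests on few genes. Wt1, Bnc1 and Nkain4 were at 0 in every group.

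Clu (chr14:65968483-65981547, plus strand) had 12, 7 and 9 counts in untreated WT, 13, 3 and 6 in DSS-treated WT, 11, 13 and 13 in untreated KO and 24, 11 and 19 in DSS-treated KO. The mean was highest in DSS-treated KO, at 2.84 CPM against 1.54 CPM in untreated KO, 1.43 CPM in untreated WT and 1.12 CPM in DSS-treated WT. No Clu difference passed. The closest was KO against WT under DSS, where the groups overlapped, with a fold of 2.54 (95% interval 1.01 to 6.29, edgeR adjusted p = 0.336). For DSS in KO the 95% interval ran from 0.757 to 4.39 times.

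Genes of the same program were then read from lists chosen with earlier results of these data in view. The leukocyte and colonic epithelium sums given above differed between the groups, and their part in the list results and in the Krt7 rise was not tested. Of 24 other regenerative epithelium genes, 18 were tested. For DSS in WT 2 were higher and 2 lower, and in KO 2 were higher and 1 lower, with list medians of 0.02 and -0.13 on the log2 scale. Over all genes tested, 2.8% were higher and 3.5% lower in WT, and 1.88% higher and 2.04% lower in KO. Hbegf, a ligand of the EGF receptor that drives epithelial migration, rose in both genotypes. It was at 159, 180 and 180 CPM untreated and 283, 283 and 286 CPM under DSS in WT (1.64 times, edgeR adjusted p = 0.000259), and at 128, 148 and 135 against 194, 178 and 188 CPM in KO (1.36 times, edgeR adjusted p = 0.0173). The KO call was lost without untreated KO replicate 1 or 3 or KO DSS replicate 1 or 3, with adjusted p reaching 0.0965. Under DSS it was lower in KO than in WT (log2 fold change -0.61, edgeR adjusted p = 0.00284).

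Il1rn, the secreted antagonist of the interleukin-1 receptor, also rose in both, 1.60 times in WT and 1.61 times in KO (edgeR adjusted p = 0.00235 and 0.00419), and passed in every alternative. Cd55, which restrains complement on the cell surface, fell in WT from 115, 94.3 and 114 CPM to 37.8, 43.5 and 49.4 CPM (log2 fold change -1.31, edgeR adjusted p = 0.00015), and untreated KO cells already stood below untreated WT cells (-0.99, edgeR adjusted p = 0.00324). The EGF receptor ligand Areg fell in WT (-0.65, edgeR adjusted p = 0.0232) and the hyaluronan receptor Cd44 in KO (-1.15, edgeR adjusted p = 0.0379). Areg was lost with only the 6 WT samples and without WT untreated replicate 1 or 2 or WT DSS replicate 2 or 3, and Cd44 in 10 of 18 alternatives, the replicate block (0.0595) and each of the 6 KO samples among them. Ly6a, the fetal-like surface antigen Sca-1, was abundant at 414 to 1008 CPM and did not pass in any comparison.

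Of 23 YAP and TEAD target genes, 13 were tested. For DSS in WT 5 were higher and 1 lower, with a list median of 0.23, beside 2.8% of all genes tested higher and 3.5% lower. In KO none passed in edgeR (1 at an unadjusted p under 0.05, 1 in DESeq2), with a median of -0.04, beside 3.92% of all genes. The count of 6 in WT fell to 3 with the replicate block, without any one of the untreated WT samples, and without WT DSS replicate 1 or 3. Ccn1, a matricellular protein and a classical YAP target, was at 29.9, 40.2 and 41.9 CPM in untreated WT and 107, 97.3 and 104 CPM under DSS (2.75 times, edgeR adjusted p = 2.33e-05). In KO it was at 67.9, 56.6 and 64.0 CPM untreated and 50.9, 49.5 and 61.2 CPM under DSS, overlapping (log2 fold change -0.22, edgeR adjusted p = 0.542). The DSS changes differed by -1.68 (SE 0.21, edgeR adjusted p = 0.000537), and this held in all 17 alternatives.

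Untreated KO cells held more Ccn1 than untreated WT cells (log2 fold change 0.75, edgeR adjusted p = 0.0124, lost with only the 6 untreated samples and without untreated KO replicate 1 or 3), and DSS-treated KO cells less than DSS-treated WT cells (-0.93, edgeR adjusted p = 0.00323). Amotl2, a YAP-binding scaffold, and F3, tissue factor, rose under DSS in WT (1.09 and 0.76, edgeR adjusted p = 0.0424 and 0.0433), calls each lost in 12 of 18 alternatives, the replicate block (0.0788 and 0.0737) and WT DSS replicates 1 and 3 among them. F3 was higher in untreated KO than in untreated WT (0.96, edgeR adjusted p = 0.0194, lost with only the 6 untreated samples and without untreated KO replicate 2 or 3). Axl and Ajuba, named after their values were seen, made up the rest of the 5, at 0 to 2 and 0 to 1 counts in untreated WT. Nt5e, an ectoenzyme that makes adenosine, fell in WT (-0.97, edgeR adjusted p = 0.0058). Ccn2 and Ankrd1, on the same list, were not tested, with 0 to 3 counts and 0 counts per sample. None of 12 tested components of the YAP pathway itself passed in any comparison in edgeR or DESeq2, with 2 at an unadjusted p under 0.05, both for DSS in KO. Yap1 was at 11.4 to 13.6 CPM in the 4 group means.

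Relatives of the markers gave mixed values. Among 8 other annexins tested, Anxa8 rose for DSS in WT (0.89, edgeR adjusted p = 0.0343) and Anxa6 was higher in untreated KO than in untreated WT (2.24, edgeR adjusted p = 0.0129). Anxa8 was lost without WT DSS replicate 1 or 2, untreated KO replicate 3 or KO DSS replicate 2, and Anxa6 without untreated WT replicate 2. Both were also lost with only the 6 samples of the groups compared. Of 8 other S100 genes tested, S100g, a calcium carrier of enterocytes, fell in KO (-2.74, edgeR adjusted p = 0.0101) at 3 to 64 counts per KO sample, a call lost without replicate 2 of either KO group.

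None of the 5 other keratins of simple epithelium tested rose under DSS in edgeR, in either genotype. Krt20, the keratin of differentiated surface cells, fell from 2748, 2569 and 1937 CPM to 922, 893 and 1070 CPM in WT and from 1913, 1953 and 1784 CPM to 778, 748 and 703 CPM in KO. The groups lay far apart in each genotype, with log2 fold changes of -1.33 and -1.34 (edgeR adjusted p = 5.15e-06 and 2.09e-05). Krt8, Krt18 and Krt19, the main keratins of the colon, did not pass for DSS in either genotype. Under DSS, KO samples held more Krt23 than WT samples (1.27, edgeR adjusted p = 0.0234, lost without any one of the WT DSS samples or KO DSS replicate 1 or 2).

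Of the 21 other Sprr and cornified envelope genes, 7 were tested, and Sprr1b and Sprr3 had no reads in any sample. Sprr2a2, which lies in the same chromosome 3 cluster as Sprr1a, fell for DSS in WT from 290, 243 and 171 CPM to 89.9, 77.3 and 94.9 CPM (log2 fold change -1.43, edgeR adjusted p = 5.69e-05). Sprr2a1 and Sprr2a3 fell there as well (-1.27 and -1.23, edgeR adjusted p = 0.00092 and 0.00327), and all 3 were lower in untreated KO than in untreated WT (-1.12 for Sprr2a2, edgeR adjusted p = 0.00115). The untreated difference was lost for Sprr2a1 in 6 of 18 alternatives, each untreated KO sample and WT replicate 1 or 2 among them, and for Sprr2a3 in 11 of 18, the replicate block (0.0698) among them. Other genes hold 96.3% of the 50-base words of Sprr2a1, so reads of these copies cannot be apportioned with certainty. In KO, Sprr2a2 fell under DSS (-0.72, edgeR adjusted p = 0.0222, lost without untreated KO replicate 1 or 2 or any one of the KO DSS samples), while Sprr1a rose. The epidermal transglutaminase Tgm3 was higher in KO than in WT, at 350, 293 and 305 against 123, 137 and 96.7 CPM untreated (log2 fold change 1.41, edgeR adjusted p = 1.21e-05) and under DSS (0.95, edgeR adjusted p = 0.000532). Tgm3 also rose for DSS in WT (0.54, edgeR adjusted p = 0.0139, lost with only the 6 WT samples and without WT DSS replicate 1 or 3). Under DSS, KO samples held less Tgm2 than WT samples (-1.51, edgeR adjusted p = 0.0286, 0.0614 with the replicate block, and lost without WT DSS replicate 1 or 2 or any one of the KO DSS samples). Tgm2 overlaps Rprd1b over 370 exon bases and Gm20412 over 633, both on the other strand, and unstranded reads there cannot be assigned with certainty.

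Il33 signalling and related alarmins were read from 12 genes, 8 of them tested. The receptor Il1rl1 had 0 counts in all WT samples and at most 6 in any KO sample. Il18, an epithelial alarmin whose gene lies 49.3 kb from Plet1, was at 112, 94.8 and 45.9 CPM in untreated WT and at 142, 165 and 153 CPM under DSS (log2 fold change 0.86, edgeR adjusted p = 0.0458), a call lost in 12 of 18 alternatives, the replicate block (0.0782) and any one of the WT DSS samples among them. In KO the adaptor Myd88 rose (0.61, edgeR adjusted p = 0.0118, lost without untreated KO replicate 2 or 3 or KO DSS replicate 2). Il1b, a cytokine mostly of myeloid cells, rose there from 6 to 25 counts per sample to 42 to 130 (2.59, edgeR adjusted p = 0.0327, 0.0761 with the replicate block, and lost without any one of the untreated KO samples or KO DSS replicate 1 or 3). Leukocyte markers summed to 131 to 155 CPM untreated and 153 to 214 CPM under DSS in the same groups, and their part in the Il1b value was not tested. Of 7 receptors of Anxa1 and Clu, only Lrp8 and Vldlr were tested. Neither of these 2 passed in any comparison in edgeR or DESeq2, with 1 at an unadjusted p under 0.05. None of the Anxa1 receptors on the list (Fpr1, Fpr2 and Fpr3) was tested.

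**Figure D3:**
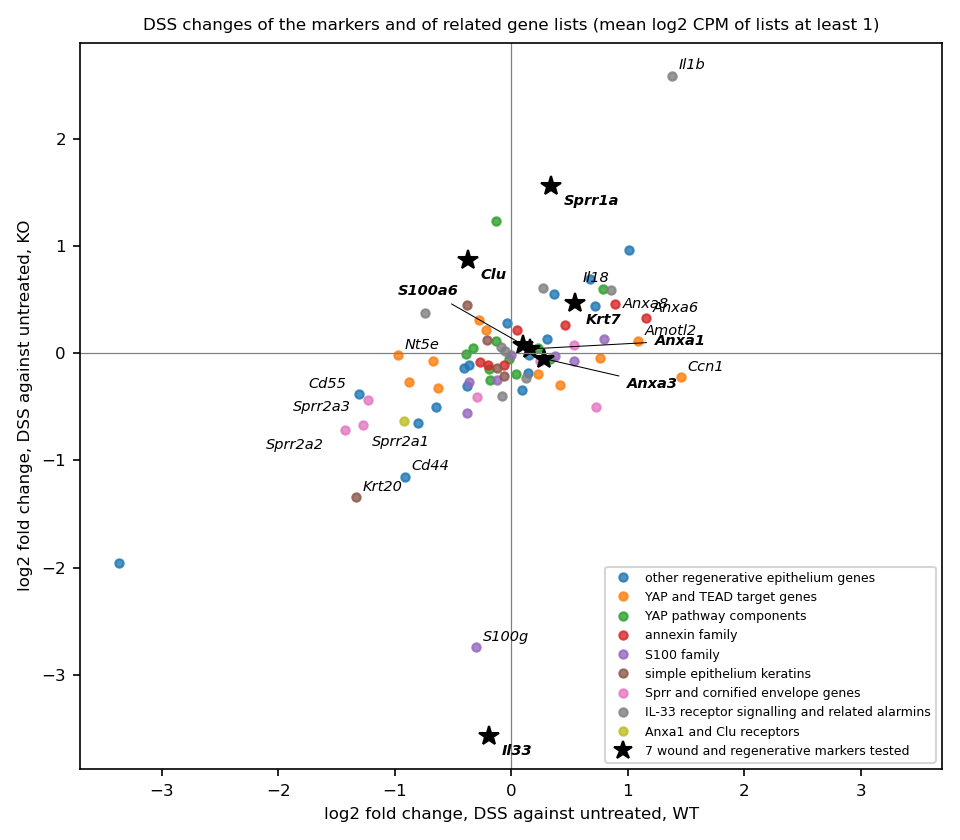
Log2 fold change under DSS in WT (horizontal) against KO (vertical) for the 7 tested markers (stars) and for genes of the related lists averaging at least 1 in log2 CPM (points, coloured by list). Krt7 lies above 0 on both axes, Krt20 far below 0 on both, and Ccn1 at 1.46 in WT and -0.22 in KO.

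The genes whose levels most resembled each marker over the 12 samples were read out by Pearson correlation of log2 CPM among genes averaging at least 1 on that scale. Among the closest to Plet1 were Ccnd1 (0.967), the G1 cyclin D1, and E2f2 (0.960), a cell cycle transcription factor, followed by Trim40, Syngr2, Pla2g4f, Yars and Prex1 (0.948 to 0.934). Ccnd1 was at 110 ± 9.55 and 159 ± 6.85 CPM (SD, n = 3) in untreated and DSS-treated WT cells, and at 77.4 ± 5.79 and 62.7 ± 6.84 CPM in KO. It was higher in all WT samples than in all KO samples, as Plet1 was. These genes were picked for that likeness, so the shared pattern is no separate support for it. E2f2 was at 54.3 ± 2.83 and 67.2 ± 5.23 CPM in WT, and at 34.5 ± 4.09 and 34.8 ± 3.31 CPM in KO (SD, n = 3).

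Krt7 was most like Trp53i11 (0.964), Dnajb1 (0.962), a heat-shock cochaperone, and Irf1 (0.949), an interferon-responsive transcription factor. Dnajb1 stood at 113 ± 7.53 and 219 ± 7.77 CPM in WT and at 101 ± 3.58 and 156 ± 2.65 CPM in KO (SD, n = 3). Sprr1a was most like Zan (0.888), Gm5970 (0.886) and the class I major histocompatibility gene H2-Q6 (0.874). S100a6 was most like Uqcr10 (0.943), Cox6a1 (0.942) and Timm8b (0.936), short nuclear-encoded genes of mitochondrial proteins, whose group means were nearly level while their samples spread within groups. Anxa1 was most like Anxa3 (0.931), Bco1 and Fbxo6, and Anxa3 most like Fbxo6 (0.953), Bco1 and Cul7, all of them lowest in untreated WT replicate 3. The neighbours of Clu (Gnpda2, 0.886) and Il33 (Nsl1, 0.918) rest on few counts of the markers themselves.

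**Figure D4:**
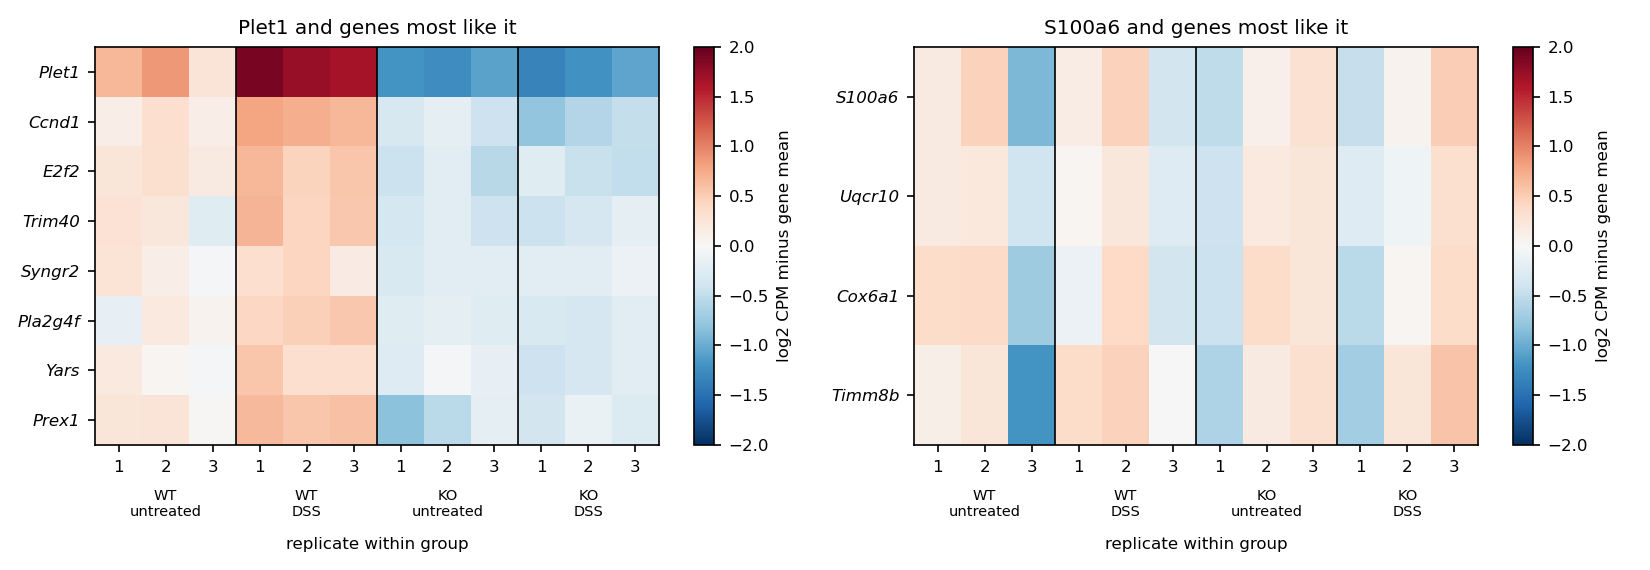
Log2 CPM minus each gene's mean in every sample, for Plet1 with 7 of the genes most like it (left) and S100a6 with 3 (right), with columns as replicates 1 to 3 within each group. Plet1 divides by genotype, and by treatment in WT but not in KO, and the other genes of its panel were chosen by likeness to it. The S100a6 panel shows replicates differing within each group.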

How the data were processed

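RNA of colonic epithelial cells, typically 90% pure, was sequenced by a SMART-seq2 protocol from 2 ng of RNA, per the labels' protocols, without molecular identifiers or strand marking. The deposited values are whole-number counts per gene that the authors made with STAR 2.5.2b and featureCounts 1.5.0 on GRCm38 (mm10), per the submitters' processing notes. The annotation and strand setting are not given in the sources used here. Symbols and coordinates came from GENCODE M21 by ID without version (46005 of 46517 IDs matched).

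Genes passing filterByExpr (12522, with 99.8% of counts) were tested with edgeR 4.0.16 (R 4.3.3): TMM scaling, 1 coefficient per group over 12 samples, quasi-likelihood F test, two-sided, Benjamini-Hochberg adjusted p under 0.05 over all genes tested. An adjusted p is from this test unless another tool is named. The interaction is the DSS change in KO minus that in WT. CPM values are TMM-scaled, and log2 CPM used a prior count of 2. Levels per kilobase divide by the length of merged exons. Alternatives were DESeq2 1.42.0, RLE scaling, 2 other filters, a replicate block, fits of 6 samples and leaving out each sample. The test was checked on simulated data. The floor of detection was set at 3 counts, or 0.356 to 0.530 CPM by library. Floors cover counting error alone, as PCR copies are not separate molecules.

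Titles number the samples 1 to 3 in each group. Deviations of same-numbered samples correlated at 0.204, 0.106 and 0.127 for DSS in KO, and at 0.0138, 0.12 and 0.128 for DSS in WT. For KO against WT these correlations ran from -0.175 to -0.0103. The main fit did not pair samples by these numbers, which entered only the replicate block. Library numbers run from 8519 to 8524 in WT and 8525 to 8530 in KO, so library order and genotype cannot be told apart.

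The members and gene lists were chosen with earlier results of these data known. List genes were named by rule: up to 3 higher and 3 lower per list and comparison by size of change, among genes that passed and averaged at least 1 on the log2 CPM scale. Likeness was read for the 8 nearest genes of Plet1 and 3 of each other marker. Some results that these rules select are not reported here.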

Additional observations from a re-analysis of the deposited data

Results flagged for a closer look

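Ccn1 was the one gene of the pathway lists whose change under DSS differed between the genotypes by the edgeR interaction test. Of the 12 colonic epithelium markers, Car1 (1.69, edgeR adjusted p = 0.000199) and Muc2 (0.84, edgeR adjusted p = 0.00456), named after their values were seen, passed it as well. For Ccn1 the DSS change in KO minus that in WT was -1.68 on the log2 scale (SE 0.21, edgeR adjusted p = 0.000537), with WT samples at 29.9 to 41.9 CPM untreated and 97.3 to 107 CPM under DSS, and KO samples at 56.6 to 67.9 and 49.5 to 61.2 CPM. Ccn1 passed in all 17 alternatives, with the adjusted p at most 0.0035. None of the 7 tested markers passed the interaction test in edgeR (1 at an unadjusted p under 0.05) or in DESeq2. Among the pathway lists, DESeq2 called 2 YAP and TEAD targets and 1 of the other regenerative epithelium genes for the interaction.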

How the results depend on the processing

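No result changed direction among those past the threshold. The number of markers past it for DSS in KO, 2 by edgeR, was 3 by DESeq2. It was 1 with the replicate block, 1 with only the 6 samples of the groups, and 0 to 1 when 1 KO sample was left out. With no filter on low counts it was also 1, but this was Il33, and both Krt7 and Sprr1a were lost. In the other comparisons the number of markers did not move by over 1.5 times. Under the replicate block, list counts past the threshold went from 6 to 3 for YAP and TEAD targets and 1 to 0 for alarmins (DSS in WT), 2 to 1 for alarmins (DSS in KO), 1 to 2 for YAP and TEAD targets and 2 to 1 for cornified envelope genes (KO against WT under DSS), and 1 to 2 for YAP and TEAD targets (interaction). The block moved no count over all genes by over 1.5 times: genes past the threshold went from 789 to 695 (DSS in WT), 491 to 409 (DSS in KO), 436 to 345 (KO against WT untreated), 390 to 290 (KO against WT under DSS) and 213 to 186 (interaction). DESeq2 gave 800, 790, 661 and 360 in the last 4 of these, and no filter 776, 703, 642 and 356. With only the 6 samples of the groups, 467 passed for DSS in WT and 195 for KO against WT untreated. Leaving out 1 sample gave 483 to 958, 235 to 710, 212 to 725, 160 to 566 and 152 to 350 genes, most often fewer when a sample of the compared groups was missing and the highest numbers without untreated WT replicate 3. The cause was not tested. Alternatives for the list counts and named list genes were chosen after seeing the data. Il33, Clu and Sprr1a were limited by counts of 0 to 47 per sample, and 3 samples per group limited S100a6.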
